A study of Arabidopsis thaliana with 6 samples.

Results

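The Casparian strip domain genes described here are 9 genes chosen by name from the 32948 genes in the deposited expression table: the scaffold genes CASP1, CASP2, CASP4 and CASP5, the transcription factor gene MYB36, the dirigent gene ESB1, the receptor kinase gene SGN3 (listed in the table under its other name, GSO1), and the peptide genes CIF1 and CIF2. All 9 were found in the table by gene ID. RNA was sequenced from seedlings of wild-type Arabidopsis thaliana (WT) after 6 h on MS medium, which is commonly used to grow plants in culture. Treated seedlings had 20 mM yttrium oxide nanoparticles in that medium and control seedlings had the medium alone, with 3 libraries in each group. Age, accession, light and the size of a pool were not given in the labels, and neither was whether the 3 libraries of a group came from separate cultures. The p-values therefore measure only the spread between these libraries, which may be technical. The libraries were made from seedlings and not from isolated endodermis, so fewer endodermal cells and less RNA per endodermal cell cannot be told apart in any value below.

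The Casparian strip is a ring of lignin in the wall of root endodermal cells that seals the space between cells, so that water and solutes must cross a membrane to reach the stele. MYB36 switches on the genes that build it, and the CASP proteins form a membrane platform to which peroxidases, laccases, uclacyanins and dirigent proteins such as ESB1 are brought. The sulfated peptides CIF1 and CIF2 come from the stele and leak out wherever the seal is open, where they bind the receptor kinase SGN3 and set off local lignin deposition until the ring closes.

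The libraries held 19314683 to 23374306 reads. Levels are given as FPKM, a read count divided by gene length and library size. Where a gene had no read, up to 3 reads could have been missed, for counting error only. For CASP5, the only gene of the 9 without a read in some libraries, this equals 0.144 to 0.172 FPKM. On the first principal component of all tested genes, with 68.4% of the variance, treated library 2 lay at 25.1 and treated libraries 1 and 3 at 48.2 and 40.7, while the controls lay between -43.7 and -32.2. Both shoot and root RNA were present. The 5 photosynthetic markers summed to 10930 to 12930 FPKM in treated libraries and 10960 to 12610 FPKM in control libraries, and every one of the root markers examined had reads in at least 1 control library.

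The peptides are shown first because their sequence is what SGN3 reads. The last 63 coding bases of each gene, given 5′ to 3′ from the RefSeq annotation of TAIR10.1 with the codons for aspartate and tyrosine in capitals, encode the 21 residues at the end of the precursor. The tyrosine of this pair is the one that the sulfotransferase TPST modifies.
CIF1, chr2:7095492-7095554, plus strand: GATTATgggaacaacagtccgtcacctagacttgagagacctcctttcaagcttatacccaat
CIF2, chr4:16529893-16529955, plus strand: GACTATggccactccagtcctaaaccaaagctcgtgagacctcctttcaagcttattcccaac
Both ends begin with the aspartate and tyrosine pair and stop at the stop codon of a precursor of 83 residues. They were identical at 48 of 63 bases and at 16 of 21 residues (76.2% of each). Over the whole coding sequence the genes were 75.1% identical, with 21 bases as the longest identical run between the transcripts, so most reads of ordinary length could be told apart.

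The 4 scaffold genes have 3 exons each and proteins of 187 (CASP5) to 206 (CASP1) residues. CASP2 and CASP4 were the closest pair, at 80.6% identity over the coding sequence and with no identical run longer than 20 bases. CASP1 and CASP2 were 67.0% identical, and the other pairs 59.1% to 63.5%. The 250 bases upstream of the annotated start are shown for the 3 scaffold genes whose window holds no other gene; the CASP2 window overlaps the neighbouring gene AT3G11540. Capitals mark a match to ACCNANC on either strand, a spelling that covers the AC elements found before many lignin genes.
CASP1, chr2:15160800-15161049, minus strand: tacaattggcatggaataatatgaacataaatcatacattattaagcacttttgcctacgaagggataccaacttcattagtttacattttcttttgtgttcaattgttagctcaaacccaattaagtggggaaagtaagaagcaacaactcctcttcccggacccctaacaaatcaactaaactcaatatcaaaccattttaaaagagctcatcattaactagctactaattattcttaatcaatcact
CASP4, chr5:1876884-1877133, plus strand: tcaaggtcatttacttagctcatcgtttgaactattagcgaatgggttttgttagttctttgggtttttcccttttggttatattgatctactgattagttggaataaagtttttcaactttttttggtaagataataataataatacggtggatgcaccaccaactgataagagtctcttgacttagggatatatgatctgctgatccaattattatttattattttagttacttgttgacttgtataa
CASP5, chr5:4966761-4967010, plus strand: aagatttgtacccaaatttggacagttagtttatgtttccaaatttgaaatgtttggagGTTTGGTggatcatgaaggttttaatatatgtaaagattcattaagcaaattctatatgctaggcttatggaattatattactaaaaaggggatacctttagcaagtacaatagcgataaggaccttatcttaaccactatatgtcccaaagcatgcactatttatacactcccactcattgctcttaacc
CASP5 held 1 match, beginning 191 bases upstream on the opposite strand, and CASP1 and CASP4 held none. Among the 9 genes, CASP5 and ESB1 had a match in this window, 2 of 9, against 27.8% of the 27419 windows of protein-coding genes. A match is a run of letters and not a shown binding site.

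Transcripts of the scaffold genes were nearly gone from treated seedlings. CASP1 (AT2G36100, chromosome 2, 15159591 to 15160799, minus strand), had 0.203, 0.202 and 0.0568 FPKM in treated libraries 1, 2 and 3, against 9.73, 8.71 and 9.37 FPKM in control libraries 1, 2 and 3. These values stood for 4, 4 and 1 reads in treated libraries, against 177, 158 and 197 reads in control libraries. The groups did not overlap, and the lowest control library lay far above every treated library. Means were 0.154 ± 0.0841 FPKM in treated and 9.27 ± 0.518 FPKM in control seedlings (SD, n = 3 each). Tested as log2(FPKM + 1), where low genes show a smaller change than they had, CASP1 fell by 3.16 (SE 0.132, limma adjusted p 8.08e-06). In reads per library size it was 59.1-fold lower, with a 95% counting interval of 30.9 to 130 (exact, counting error only). Its span overlaps the opposite-strand gene AT2G36090 over 4.05% of its length, and the use of strand in counting was not given in the sources used here.

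CASP2 (AT3G11550, chromosome 3, 3638178 to 3639348, plus strand), a partner of CASP1 in the membrane platform, had 0.0461, 0.0458 and 0.103 FPKM in treated libraries, against 2.65, 3.06 and 3.67 FPKM in control libraries. Every treated library held 1 or 2 reads of it, and the groups did not overlap. CASP2 fell by 1.95 on the log2(FPKM + 1) scale (SE 0.150, limma adjusted p 0.000101), and in reads it was 49.8-fold lower (counting interval 19.1 to 184.4).

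CASP4 (AT5G06200, chromosome 5, 1877134 to 1878324, plus strand), the closest relative of CASP2 by sequence, had 0.181, 0.135 and 0.202 FPKM in treated libraries, against 2.59, 1.86 and 2.75 FPKM in control libraries. The groups did not overlap. CASP4 fell by 1.53 on the log2(FPKM + 1) scale (SE 0.157, limma adjusted p 0.00048). In reads it was 14.2-fold lower, with a counting interval of 7.71 to 29.0. This interval overlaps that of CASP2 but not that of CASP1. It leaves out the spread between libraries, so it does not show that the falls differed. CASP5 (AT5G15290, chromosome 5, 4967011 to 4968092, plus strand) had no read in any treated library, against 4, 1 and 4 reads, or 0.223, 0.0558 and 0.193 FPKM, in control libraries. The exact 95% counting interval of the control over treated ratio of its reads began at 1.97, with no upper end. Its mean over the 6 libraries was too low for the main test, and without a filter neither limma (adjusted p 0.111) nor edgeR (adjusted p 0.109) called it.

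**Figure D1:**
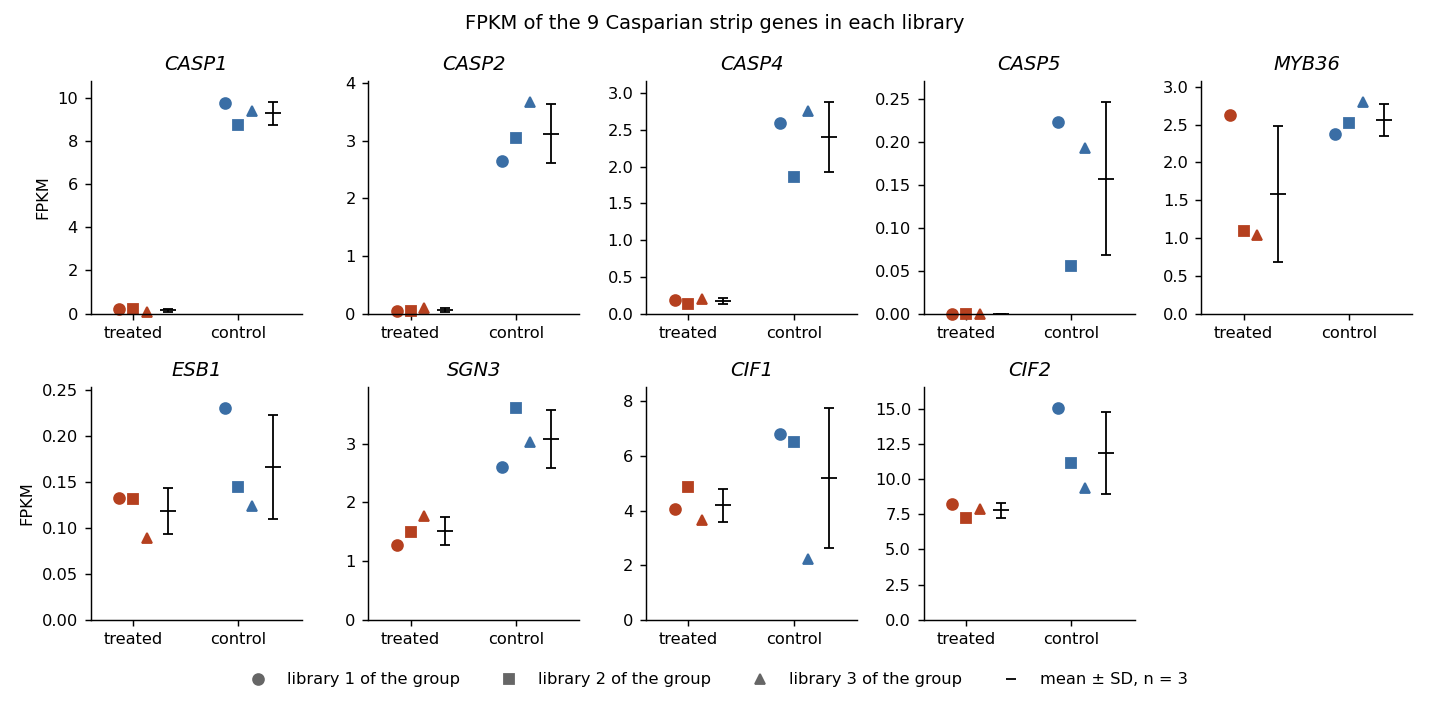
FPKM of each of the 9 genes (1 panel each, vertical axis from 0 and scaled per gene) in the 3 treated libraries (red, left) and the 3 control libraries (blue, right), with the mean and SD of each group beside the points. CASP1 lies at 0.0568 to 0.203 FPKM in treated and 8.71 to 9.73 FPKM in control libraries, while the groups overlap for MYB36, ESB1 and CIF1.

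Summed over CASP1, CASP2, CASP4 and CASP5, the scaffold genes had 0.391 ± 0.0349 FPKM in treated and 15.0 ± 1.17 FPKM in control seedlings (SD, n = 3 each), and 24 reads in all treated libraries against 896 reads in all control libraries. With edgeR on reads recovered from the FPKM values, the log2 fold changes without a pseudocount of that kind were -5.84 for CASP1, -5.51 for CASP2 and -3.78 for CASP4, with adjusted p-values of 7.48e-06, 4.38e-05 and 0.000227. The authors' deposited table gives -5.88, -5.62 and -3.81 for these 3 genes. Its 2104 genes all have an absolute log2 fold change above 1 and an adjusted p under 0.05. SGN3 is at -1.03 in the authors' deposited table, which holds none of the other 5 genes. CASP1, CASP2 and CASP4 passed the filter of a mean of 1 FPKM only through the control libraries, so any of them had to differ in order to be tested.

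MYB36 (AT5G57620, chromosome 5, 23334767 to 23336632, plus strand), the regulator of the scaffold genes, had 2.62, 1.09 and 1.04 FPKM in treated libraries, against 2.37, 2.52 and 2.80 FPKM in control libraries. Treated library 1 lay within the control range and the other 2 treated libraries below it. The difference was -0.52 on the log2(FPKM + 1) scale (SE 0.227, limma adjusted p 0.170), and without treated library 1 it was -0.79 with an adjusted p of 0.0176, past the threshold. ESB1 (AT2G28670, chromosome 2, 12300265 to 12302358, minus strand), a dirigent protein needed for an unbroken strip, was near the limit of detection, with 5, 5 and 3 reads in treated libraries and 8, 5 and 5 reads in control libraries. That was 0.133, 0.132 and 0.0889 FPKM in treated, against 0.230, 0.144 and 0.124 FPKM in control libraries, and the groups overlapped. ESB1 was too low for the main test, and without a filter neither limma (adjusted p 0.597) nor edgeR (adjusted p 0.708) called it. The opposite-strand gene AT2G28671, whose own mean was 0.0266 FPKM, covers 84.6% of its span. Reads of both genes therefore cannot be told apart if strand was not used.

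SGN3 (AT4G20140, chromosome 4, 10883921 to 10888270, plus strand), the receptor kinase of the barrier check, had 1.28, 1.49 and 1.76 FPKM in treated libraries, against 2.61, 3.60 and 3.04 FPKM in control libraries. The groups did not overlap. SGN3 fell by 0.70 on the log2(FPKM + 1) scale (SE 0.152, limma adjusted p 0.0183), or 2.06-fold in reads with a counting interval of 1.82 to 2.32. The call was lost without treated library 1 (adjusted p 0.0558), without control library 2 (0.0756) or without control library 3 (0.0594). Over 7.75% of its span SGN3 shares bases with the opposite-strand gene AT4G20150, which had 133.5 FPKM in treated and 134.8 FPKM in control seedlings.

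The ligands of SGN3 were the most abundant transcripts of the group in treated seedlings. CIF1 (AT2G16385, chromosome 2, 7094743 to 7095824, plus strand) had 4.05, 4.85 and 3.66 FPKM in treated libraries, against 6.80, 6.51 and 2.22 FPKM in control libraries. Control library 3 lay below and the other 2 control libraries above all treated libraries. The difference of -0.15 on the log2(FPKM + 1) scale had an SE of 0.334 (limma adjusted p 0.799), and it turned to 0.070 without control library 1 and to 0.043 without control library 2. CIF2 (AT4G34600, chromosome 4, 16529058 to 16530228, plus strand) had 8.25, 7.23 and 7.84 FPKM in treated libraries, against 15.0, 11.1 and 9.40 FPKM in control libraries, and the groups did not overlap. Its difference of -0.53 (SE 0.164) missed the threshold, with a limma adjusted p of 0.0661. It passed with upper-quartile scaling (0.0426), with DESeq2 (0.0439), with a replicate block (0.0450) and without control library 3 (0.0426). In the other 14 alternatives CIF2 did not pass. Among these were edgeR (adjusted p 0.0633), DESeq2 without a filter (0.0514) and limma without control library 1 (0.1865).

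Over the 9 genes, limma therefore called 4 lower (CASP1, CASP2, CASP4 and SGN3) and 0 higher at an adjusted p under 0.05, called 3 neither way (MYB36, CIF1 and CIF2) and could not test 2 (CASP5 and ESB1). Over all tested genes 6.41% were called lower and 8.07% higher. CASP1, CASP2 and CASP4 passed the filter only through the control libraries. They had to be lower to be tested, so these 3 calls are no support. Of the other 4 tested genes 1 was called lower and 0 higher. EdgeR called 4 lower and 0 higher, against 1323 lower and 1620 higher of all 18614 tested genes. DESeq2 called 5 lower and 0 higher, against 1557 lower and 2067 higher. Both used the same filter, so CASP1, CASP2 and CASP4, which are among these calls, are again no support. Beyond them edgeR called SGN3, and DESeq2 called SGN3 and CIF2. The groups did not overlap, with treated libraries lower, for 6 of the 9, against 15.7% of all genes with a read.

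Because FPKM is per length, levels can also be ranked between genes. In treated seedlings the order of mean FPKM was CIF2 (7.77), CIF1 (4.19), MYB36 (1.58), SGN3 (1.51), CASP4 (0.172), CASP1 (0.154), ESB1 (0.118), CASP2 (0.0650) and CASP5 (0). Ranges over the 3 libraries separated CIF2 from CIF1, CIF1 from MYB36, and SGN3 from CASP4, and overlapped between MYB36 and SGN3 and between the neighbours from CASP4 down to CASP2. CASP5 had no read in treated libraries, which at this depth does not set it apart from CASP2. In control seedlings mean FPKM ran from CIF2 (11.9) and CASP1 (9.27) through CIF1 (5.18), CASP2 (3.13), SGN3 (3.08), MYB36 (2.56) and CASP4 (2.40) down to ESB1 (0.166) and CASP5 (0.157). Ranges of neighbours in this order overlapped except between CASP1 and CIF1 and between CASP4 and ESB1. The place of ESB1 in both orders rests on counted reads only. Of its span 84.6% lies under AT2G28671, and the use of strand in counting was not given.

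A ratio inside 1 library does not depend on how libraries were scaled. The summed FPKM of the 4 scaffold genes was 0.164, 0.351 and 0.348 times that of MYB36 in treated libraries, against 6.41, 5.43 and 5.71 times in control libraries. The scaffold genes thus stood below their regulator in all 3 treated libraries and above it in all 3 control libraries. The difference of the log2 ratio, treated minus control, was -4.42 (2-sided exact permutation p = 0.1, the smallest that 3 against 3 allows). Relative to SGN3 the same sum was 0.336, 0.256 and 0.205 times in treated libraries, against 5.83, 3.798 and 5.26 times in control libraries. That difference was -4.23 (exact permutation p = 0.1). These ratios show that scaffold genes and regulators changed unequally, not that any of them held its level.

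**Figure D2:**
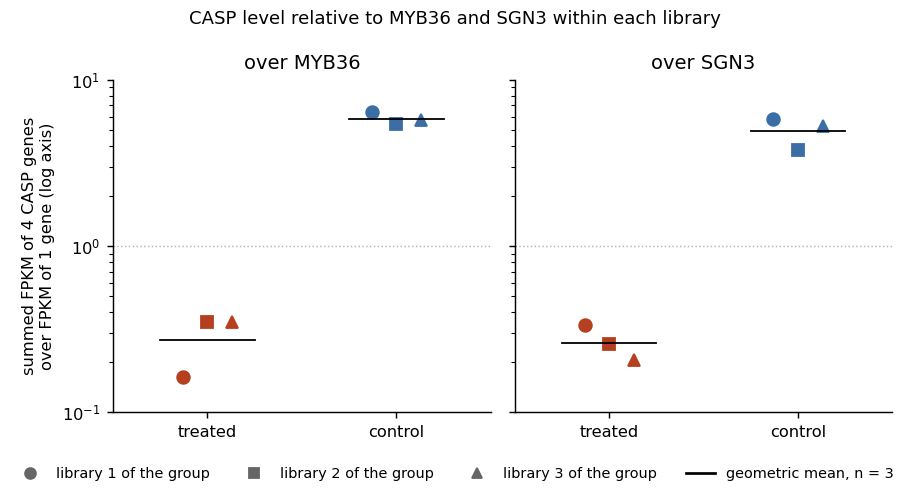
Summed FPKM of CASP1, CASP2, CASP4 and CASP5 divided by the FPKM of MYB36 (left panel) or SGN3 (right panel) in each library, on a log axis, with treated libraries left of control libraries and a line at the geometric mean of 3. Treated libraries lie at 0.164 to 0.351 and control libraries at 3.798 to 6.41 in the 2 panels together.

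Of 29 other genes of the pathway, 24 were tested by limma, and 9 fell, 1 rose and 14 were not called. Of the 9, 6 (DIR24, PER64, DIR9, DIR18, UCC1 and MGP) passed the filter only through the control libraries and had to differ in order to be tested. The other 18 tested genes gave 3 lower and 1 higher, where limma called 6.41% of all tested genes lower and 8.07% higher. EdgeR without a filter gave 10 lower and 2 higher of the 29, against 1731 lower and 1882 higher of 25437 genes with a read. The median difference of the 24 was -0.25 on the log2(FPKM + 1) scale, against 0.00087 over all tested genes. It includes the 6 genes that had to differ, so it is partly set by the filter and is no support. The genes that fell included builders of the lignin ring, and DIR24, a dirigent gene, had 0.277, 0.275 and 0.265 FPKM in treated libraries, against 12.4, 12.7 and 12.9 FPKM in control libraries. DIR24 fell by 3.43 (SE 0.118, limma adjusted p 3.99e-06). PER64, a peroxidase found at the CASP platform, had 0.261, 0.296 and 0.5001 FPKM in treated libraries, against 6.58, 6.40 and 6.81 FPKM in control libraries, and fell by 2.49 (SE 0.135, adjusted p 1.92e-05). In neither gene did the groups overlap.

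The dirigent genes DIR9 and DIR18 fell by 2.20 and 1.71. DIR9 had 0.194, 0.385 and 0.217 FPKM in treated, against 4.03, 5.13 and 5.37 FPKM in control libraries. DIR18 had 0.433, 0.334 and 0.322 FPKM in treated, against 3.64, 3.34 and 3.42 FPKM in control libraries. The laccase gene LAC3, whose protein sits at the strip, had 2.03, 4.27 and 2.31 FPKM in treated, against 10.4, 12.9 and 11.1 FPKM in control libraries, and fell by 1.73 (limma adjusted p 0.00127). UCC1, a uclacyanin of the strip, fell by 1.21 (adjusted p 0.0073), while its relative UCC2 had a difference of 0.60 that was not called (adjusted p 0.085). The peroxidase gene PER9 was not tested because its mean was under 1 FPKM. It had 0, 1 and 0 reads in treated libraries, against 48, 49 and 82 reads in control libraries, and edgeR without a filter gave it an adjusted p of 2.31e-06. PER9 was singled out after its values were seen.

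In the signalling branch, the subtilase gene SBT4.12 fell by 1.11 (limma adjusted p 0.0056), and its relatives are known to cut peptide precursors. It had 5.95, 10.4 and 6.64 FPKM in treated, against 16.02, 17.2 and 18.8 FPKM in control libraries. PBL15, a cytoplasmic kinase, had 1.72, 2.81 and 1.51 FPKM in treated, against 5.24, 4.40 and 5.99 FPKM in control libraries, and fell by 1.06 (adjusted p 0.00795). RBOHD, an NADPH oxidase that makes the superoxide for peroxidases and also acts in defence, was the 1 gene called higher: it had 44.7, 36.3 and 38.4 FPKM in treated, against 21.9, 24.6 and 26.4 FPKM in control libraries, and rose by 0.69 (adjusted p 0.0080). RBOHF, an oxidase tied to strip lignin, had a difference of -0.31 (adjusted p 0.131), and TPST one of 0.06 (adjusted p 0.799).

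Upstream of MYB36, the master regulators of root radial patterning were not called. SHR, which moves out of the stele, differed by -0.05 (adjusted p 0.838), and its partner SCR by -0.19 (adjusted p 0.305), with groups that did not overlap for SCR. MGP, a zinc finger target of both, fell by 0.87 (limma adjusted p 0.0097). MYB15, a lignin regulator in defence, had 19.6, 14.5 and 7.70 FPKM in treated, against 5.58, 3.57 and 6.74 FPKM in control libraries, a difference of 1.19 that limma did not call (adjusted p 0.0552) and edgeR did (0.0433). In LAC3, SBT4.12 and PBL15, treated library 2 was the treated library nearest to the controls. Without it, 12 pathway genes were lower and 1 higher, against 1498 lower and 1944 higher of all 18629 genes tested then. Without treated library 1 the counts were 10 lower and 1 higher, against 925 lower and 889 higher of 18591 genes. Without treated library 3 they were 10 lower and 3 higher, against 976 lower and 1148 higher of 18622 genes. All of these counts take in genes that passed the filter only through the control libraries, so they are no support.

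**Figure D3:**
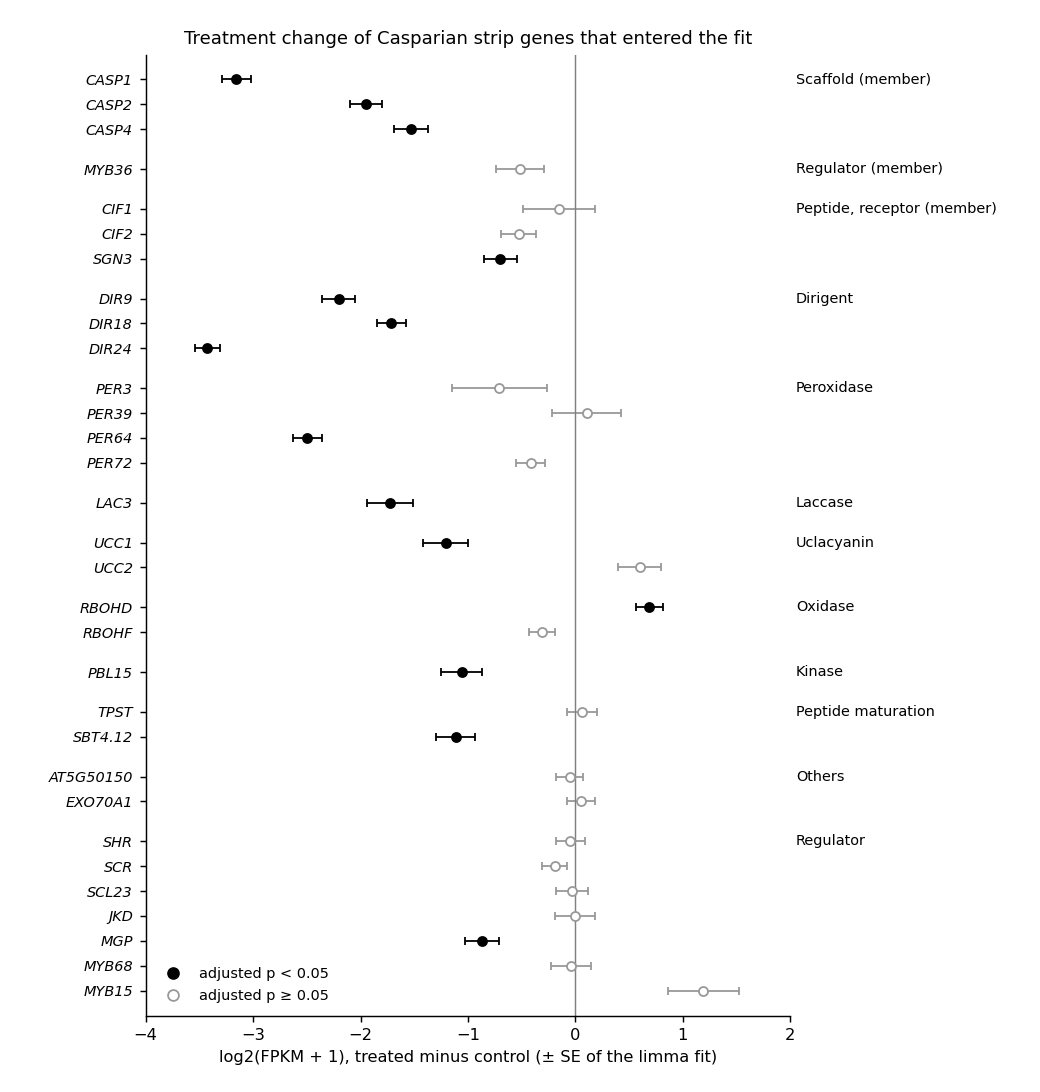
Difference in log2(FPKM + 1), treated minus control, with the SE of the limma fit, for the Casparian strip genes that entered the fit, grouped by role from top to bottom. Filled points have an adjusted p under 0.05; the largest falls are those of DIR24 (-3.43) and CASP1 (-3.16), and RBOHD (0.69) is the only filled point above 0.

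The CASP proteins belong to a large family of membrane proteins, and 35 further CASP-like genes (CASPL) were listed, of which 29 were tested. Limma called 4 lower and 2 higher, or 6 of 29 where 14.5% of all tested genes were called, and the median difference was 0.0031 on the log2(FPKM + 1) scale. CASPL1B2 had 7.97, 12.9 and 10.2 FPKM in treated, against 63.5, 62.7 and 57.2 FPKM in control libraries, and fell by 2.47 (adjusted p 3.93e-05). CASPL4D1 (-2.102), CASPL1B1 (-1.92) and CASPL1A1 (-1.21) also fell, with limma adjusted p-values of 9.12e-05, 0.000118 and 0.0084. CASPL4D1 passed the filter only through the control libraries and had to be lower to be tested, so its call is no support. Of the other 28 tested genes of this family 3 were called lower and 2 higher. CASPL2D1 rose by 1.122 and CASPL1D1 by 0.72, with adjusted p-values of 0.0092 and 0.0338. The other 23 tested CASP-like genes were not called, and differences among them lay on both sides of 0.

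The 5 genes outside the group whose profile over the 6 libraries lay nearest to that of CASP1 were PER7, PER27, FLS5, DIR24 and AT4G22230, by the root mean square distance of centred log2(FPKM + 1) values, 0.108 to 0.158. PER7, a peroxidase gene, had 0.0845 ± 0.0875 FPKM in treated and 8.20 ± 0.401 FPKM in control seedlings (SD, n = 3 each). FLS5, listed among flavonol synthase genes, stood at a higher level, with 8.93 ± 1.28 FPKM in treated and 105.3 ± 7.20 FPKM in control seedlings. CASP2 and CASP4 lay farther off, at 0.62 and 0.82. Their control levels were lower than that of CASP1, and log2(FPKM + 1) gives lower genes a smaller difference for the same fold.

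The supply of lignin monomers was described by 15 genes, all tested, of which limma called 2 higher and 1 lower, with a median difference of 0.04. With 14.5% of all tested genes called, 3 of 15 is near the background and says nothing particular of this list. CAD5 and CAD4 make the monolignols in the last step. CAD5 had 49.2, 48.0 and 39.1 FPKM in treated, against 35.0, 30.1 and 32.8 FPKM in control libraries, and CAD4 had 38.0, 39.5 and 32.1 FPKM in treated, against 51.4, 45.8 and 50.6 FPKM in control libraries. CAD5 rose by 0.46 (limma adjusted p 0.0418) and CAD4 fell by 0.43 (adjusted p 0.0452). PAL4, a phenylalanine ammonia-lyase at the entry of the pathway, rose by 0.62 (adjusted p 0.0499). These 3 calls lay close to the threshold, and the count was 0 without a filter or without treated library 1, control library 1, control library 2 or control library 3.

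Suberin is the second barrier of the endodermis, laid down after the strip. Of 13 suberin genes 12 were tested, and limma called 3 lower and 3 higher, against 6.41% and 8.07% of all tested genes, with a median difference of -0.39. CYP86A1, the fatty acid hydroxylase of root suberin, had 19.7, 21.6 and 24.0 FPKM in treated, against 55.1, 58.5 and 55.9 FPKM in control libraries, and fell by 1.34 (adjusted p 0.000128). The fatty acyl reductase gene FAR5 fell by 0.78 (adjusted p 0.0061), while its relative FAR1 rose by 0.74 (adjusted p 0.0138). The acyltransferase gene GPAT7 had 8.68, 8.89 and 5.90 FPKM in treated, against 2.57, 4.01 and 4.31 FPKM in control libraries, and rose by 0.93 (adjusted p 0.0178). The transporter gene ABCG20 fell by 0.56 and ASFT, which adds ferulate to suberin, rose by 0.47. The count was 3 without treated library 1, control library 1 or control library 2.

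Markers of some other root cell types were also lower in treated seedlings. For the counts below, limma called 6.41% of all tested genes lower and 8.07% higher. EdgeR without a filter called 1731 of 25437 genes lower. Of 7 root hair markers 4 were tested, and these 4 passed the filter only through the control libraries, so they had to be lower to be tested and their count is no support. Without a filter edgeR called 6 of the 7 lower, RHD6 not among them. The list summed to 0.872 to 1.20 FPKM in treated libraries and 17.7 to 24.8 FPKM in control libraries. All 6 cortex and whole-root markers fell, of which 2 passed the filter only through the control libraries, and the list summed to 498.8 to 553.7 FPKM in treated and 2218 to 2750 FPKM in control libraries. NRT2.1, a root nitrate transporter, fell by 3.66 and PYK10, a root beta-glucosidase, fell by 2.15. Of 5 stele markers 3 were tested and 2 fell (PHO1 and NPF7.3, which load xylem with phosphate and nitrate), with sums of 29.8 to 38.8 FPKM in treated and 55.0 to 65.3 FPKM in control libraries. BOR1, a boron exporter, differed by -0.09 (limma adjusted p 0.776). Without a filter edgeR called 3 of the 5 stele markers lower, SKOR among them (adjusted p 7.66e-05).

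Of 6 xylem markers 5 were tested and 2 fell, CESA8 having passed the filter only through the control libraries, with sums of 13.2 to 13.7 FPKM in treated and 18.05 to 23.5 FPKM in control libraries. The 3 root cap and 3 meristem markers were all under the filter. The cap summed to 0.199 to 0.340 FPKM in treated and 0.609 to 1.13 FPKM in control libraries. The meristem summed to 1.01 to 1.28 FPKM in treated and 1.54 to 2.555 FPKM in control libraries. Without a filter edgeR called 0 cap markers and 1 meristem marker lower (PLT1, adjusted p 0.02045). Of 5 shoot epidermis and guard cell markers limma called 0, with 2 lower at an unadjusted p under 0.05 and with 0 called by edgeR and 1 by DESeq2. They summed to 139.8 to 151.9 FPKM in treated and 162.2 to 183.2 FPKM in control libraries. Of 5 photosynthetic markers 1 rose (LHCB2.1, an antenna protein). No marker was at 0 in all 6 libraries; the root hair genes LRX1, EXPA18 and COBL9 and the cap genes BRN1 and BRN2 were each at 0 in 1 or 2 treated libraries and above 0 in every control library. The part of these differences in the values of the Casparian strip genes was not tested.

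**Figure D4:**
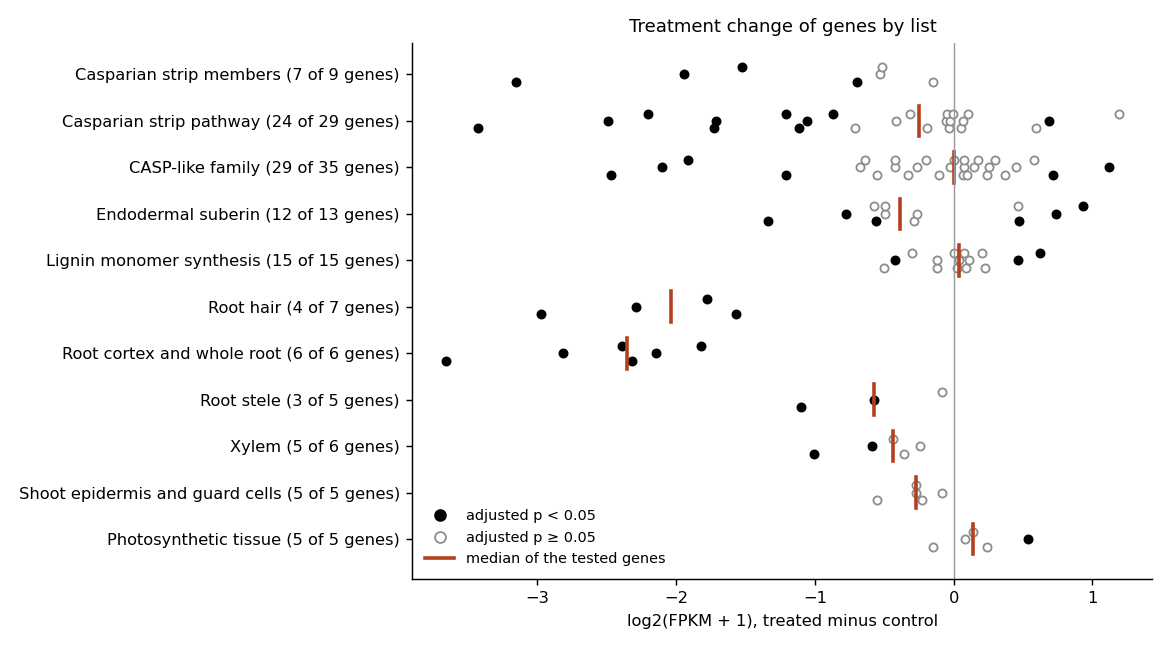
Difference in log2(FPKM + 1), treated minus control, of each tested gene in the Casparian strip, related and marker lists, with the number tested of the number listed beside each name and a red bar at the median of a list's tested genes (none for the 9 Casparian strip genes). The tested root hair and cortex markers all lie below -1.5, the CASP-like family lies around 0, and CASP1 lies at -3.16.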

How the data were processed

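The authors deposited FPKM values for 32948 genes in 6 libraries, and a table of 2104 genes that holds a scaled signal for each library (reads over a size factor), log2 fold changes and p-values. The aligner HISAT2 2.0.5 and the TAIR10 build are listed per the submitters' processing notes. How reads were counted and filtered, the annotation and the use of strand: not given in the sources used here. Groups came from the treatment label. FPKM times gene length gave whole reads for 100% of values (tolerance 0.01), and the authors' scaled values gave the same reads. Of the gene IDs, 32548 matched the RefSeq annotation of TAIR10.1, and 99.95% of these had the same coordinates. Gene names missing from the table came from that annotation.

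Genes with a mean of at least 1 FPKM entered limma 3.58.1 (R 4.3.3) as log2(FPKM + 1) (eBayes with trend and robust, 2-sided, treatment as the only term), with Benjamini-Hochberg adjustment over all of the 18614 genes tested and a threshold of 0.05. Alternatives were edgeR 4.0.16 (quasi-likelihood) and DESeq2 1.42.0 on recovered reads, pseudocounts of 0.1 and 0.5, other filters and scalings, a replicate block and each library left out. The read tests without a filter, and alternatives for the lignin, suberin and CASP-like lists, were chosen after seeing the data. The fits were tested on simulated data. Fold changes in reads have exact 95% intervals that cover counting error only. Sequences were read with Python 3.11.15 and Biopython 1.88.

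The 9 genes and the lists were chosen with earlier results of these data known. A further gene of the chosen set is not reported here and is left out of every count and sum over the set. Named were the 9 genes, the called genes with the 4 lowest adjusted p-values of each list, further list members with a defining role, and the 5 genes nearest to CASP1. For the marker lists, examples of the called genes are given.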

Additional observations from a re-analysis of the deposited data

How the results depend on the processing

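CASP1, CASP2 and CASP4 were lower and called under every alternative in which they entered the fit. The 4 calls among the 9 genes became 3 to 4 when 1 library was left out (3 without control library 2, where SGN3 lost its call, and 3 without control library 3, where SGN3 lost its call, CASP4 missed the filter and CIF2 gained a call), and 0 with a minimum mean of 5 FPKM, where only 1 of the 9 genes entered. That minimum left 4 of 10 pathway calls, and leaving out 1 library gave 10 to 13. The 2696 genes called in all became 1340 to 3442 without 1 library (1340 without control library 1, 1555 without control library 2) and 4056 with DESeq2 without a filter. The 3 lignin calls became 0 without a filter, 1 with upper-quartile scaling, 1 with a replicate block and 0 to 3 without 1 library. The 6 suberin calls became 10 with DESeq2, 10 with edgeR without a filter, 10 with DESeq2 without a filter and 3 to 8 without 1 library. The 6 CASP-like calls became 5 to 8 without 1 library. The log2 ratio of the scaffold genes to MYB36 differed by -3.001 with a pseudocount of 1 and by -4.61 to -4.06 without 1 library, and that to SGN3 by -2.82 and by -4.41 to -4.06. The CIF1 difference of -0.15 ran between -0.57 and 0.070 without 1 library, reversed at 0.070 without control library 1 and at 0.043 without control library 2. The causes of these shifts were not tested, other than the filter misses named above. Deviations of same-numbered libraries correlated at 0.0861, 0.383 and 0.101, not all above 0.1. Treated library 1 correlated best with control library 3 (0.302). With 3 libraries in each group these values cannot show whether same-numbered libraries were paired, and the labels do not say. The replicate block gave 3256 calls, CIF2 among them. Low reads limit CASP5 and ESB1: differences of a few reads were not detectable at this depth. Whether the overlap of ESB1 with AT2G28671 lowered its count was not tested.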
